A study of Homo sapiens with 3 samples.

Results

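The annexins are a family of proteins that bind acidic phospholipids when calcium is present. Each is built from repeats of a conserved core that carries the calcium sites, preceded by an N-terminal tail that differs between members and binds partner proteins. They are known for work at membranes: vesicle traffic, repair of the plasma membrane, control of phospholipase A2 and of plasmin formation at the cell surface, and, for annexin A1, signalling through the formyl peptide receptors. In the intestinal epithelium several members are abundant, and *ANXA13* is known as an intestinal form.

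The family was followed here through 10 genes, *ANXA1*, *ANXA2*, *ANXA3*, *ANXA4*, *ANXA5*, *ANXA6*, *ANXA7*, *ANXA10*, *ANXA11* and *ANXA13*, found by their symbols among the 23131 rows of the deposited expression table. They are 10 of its 17 rows with an ANXA symbol, and *ANXA1* was set beside the other 9. RNA-seq had been made from HCT-116, a human colon carcinoma line whose *APC* is wild type and whose *CTNNB1*, the gene of β-catenin, carries a Ser45 deletion, so that all groups share that activating change. One library came from cells given a pool of anti-APC siRNA on 2 consecutive days and collected 48 h after the second transfection. The other came from control cells that are titled untransfected, although a further label describes reagent without siRNA. A library of cells given scrambled siRNA was not analysed here, so what the siRNA targets and what transfection itself does cannot be told apart from the libraries used. Each group was 1 library of 1 cell line, so no difference below has a replicate check, and no p-value is given.

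Values are FPKM, fragments scaled to the length of the transcript and the size of the library, which allows levels to be compared between genes. The depth was about 22000000 reads for the anti-APC library and 24100000 reads for the untransfected one, as far as the steps between low values show it. The intervals below are 95% intervals of the log2 ratio (anti-APC over untransfected) that cover counting error only. Where a pair of values is given, the anti-APC library comes first and the untransfected control second. *APC* itself was at 3.43 FPKM after anti-APC siRNA, against 9.15 FPKM in the control, a log2 ratio of -1.41 (-1.53 to -1.30), so its transcript was reduced but still present. *AXIN2*, a target of β-catenin, was at 28.7 and 4.11 FPKM, and *CTNNB1* at 178 and 177 FPKM. The epithelial label was checked with 9 genes, of which 6 reached 1 FPKM in both libraries, with *KRT8* at 478 and 588 FPKM and *EPCAM* at 170 and 190 FPKM. The enterocyte genes *VIL1* and *CDX1* were at or near 0 in both libraries. All 6 epithelial genes had the lower value with anti-APC siRNA, *CDH1* by over 1.5-fold, beside 58.4% of all genes with the lower value there. Their part in the annexin values was not tested, and in bulk RNA fewer cells of a type and less RNA per cell cannot be told apart. Summed markers of leukocytes and of endothelium stayed under 0.08 FPKM in each library, and *ALB* was listed at 0. The 3 fibroblast markers summed to 3.11 and 2.85 FPKM, nearly all of it *COL1A1* at 3.08 and 2.85 FPKM, with *COL1A2* and *DCN* at or near 0.

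A short stretch of coding sequence is shown because the members differ there in a motif of the calcium sites. This motif is glycine, any residue, glycine and threonine. The lines give 30 coding bases, 5′ to 3′, aligned with the first such motif of *ANXA5*, and capitals mark the 4 codons at that position.
ANXA5: gctatgaaaGGCTTGGGCACAgatgaggag
ANXA3: gcaatcagaGGAATTGGAACTgatgagaaa
ANXA4: gccatgaaaGGGCTCGGCACCgatgaagac
ANXA1: gccataatgGTTAAAGGTGTGgatgaagca
ANXA2: gccatcaagACCAAAGGTGTGgatgaggtc
ANXA10: gcactccaaGGATTTGACTGTgacaaagac
The motif was present at this position in *ANXA3*, *ANXA4* and *ANXA5*, and also in *ANXA7* and *ANXA11*, and it was absent from *ANXA1*, *ANXA2*, *ANXA6* and *ANXA10*. In GRCh37 the *ANXA1* window lies on the plus strand in 2 exons, at chr9:75773704-75773719 and chr9:75774245-75774258. That of *ANXA2* lies on the minus strand, at chr15:60674541-60674556 and chr15:60656709-60656722, and that of *ANXA10* on the plus strand, at chr4:169049301-169049316 and chr4:169060637-169060650. The other 3 windows are those of *ANXA5* on the minus strand, at chr4:122607443-122607458 and chr4:122605913-122605926, of *ANXA3* on the plus strand, at chr4:79494406-79494421 and chr4:79500181-79500194, and of *ANXA4* on the plus strand, at chr2:70015258-70015273 and chr2:70031665-70031678. An exon junction falls after base 16 of the window in all of them.

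Over the whole coding sequence, translated from the annotated transcripts, *ANXA1* held 2 such motifs in 346 residues and *ANXA2* held 2 in 339. *ANXA3*, *ANXA4* and *ANXA5* held 3 each in 320 to 323 residues, *ANXA6*, whose core is duplicated, held 5 in 673, and *ANXA10* held 1 in 324. The protein closest to annexin A1 was annexin A2, with 53.4% identical residues, followed by annexin A3 with 49.1%. Annexin A10 was the least similar, with 39.7%. The motif counts and identities describe the sequences, and nothing about calcium was measured here.

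The members lie apart from each other in the genome. In GRCh37, *ANXA1* is at chr9:75766781-75785309 on the plus strand with 13 exons, *ANXA2* at chr15:60639333-60695082 on the minus strand with 13 exons, *ANXA4* at chr2:69871557-70054244 on the plus strand and *ANXA6* at chr5:150480267-150537376 on the minus strand with 26 exons. Chromosome 4 holds *ANXA3* at chr4:79472901-79531605 and *ANXA10* at chr4:169013688-169108887 on the plus strand, and *ANXA5* at chr4:122589101-122618150 on the minus strand. Chromosome 10 holds *ANXA7* at chr10:75134859-75173834 and *ANXA11* at chr10:81910645-81965328, both on the minus strand. No member shared its deposited locus with another row of the table.

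*ANXA1*, whose product holds back phospholipase A2 and is released as a ligand of formyl peptide receptors, was at 601 FPKM after anti-APC siRNA, against 418 FPKM in the control. The difference of 183 FPKM is 1.44-fold, a log2 ratio of 0.52 (0.49 to 0.56), from an estimated 18518 and 14111 reads. It stayed short of the 1.5-fold limit used here. Among the 11815 genes at 1 FPKM or more in each library, 97.3% had a lower log2 ratio than *ANXA1*. By level, *ANXA1* was number 161 of the 23131 rows in the anti-APC library and number 228 in the untransfected one.

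*ANXA2*, which forms a complex with S100A10 and binds plasminogen and its activator at the cell surface, had the highest level of the 10 in both libraries. It was at 627 FPKM after anti-APC siRNA, against 571 FPKM in the control, a log2 ratio of 0.13 (0.11 to 0.16). *ANXA2* stood at 1.36 times the *ANXA1* level in untransfected cells and at 1.04 times in the anti-APC library, as the rows are listed. These levels depend on how reads were divided between *ANXA2* and its copies, which is uncertain and is described with the copies. Together they made up 59.97% of the summed annexin FPKM in untransfected cells and 64.1% with anti-APC siRNA, and *ANXA1* alone made up 25.4% and 31.4%.

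*ANXA3* and *ANXA5* followed. *ANXA3* was at 229 FPKM after anti-APC siRNA, against 182 FPKM in the control, 1.26-fold higher, with a log2 ratio of 0.33 (0.28 to 0.38). *ANXA5*, whose product binds phosphatidylserine and is used to stain dying cells, was at 237 and 222 FPKM, with a log2 ratio of 0.10 (0.053 to 0.14). All 4 members above 100 FPKM therefore had the higher value with anti-APC siRNA, by 301 FPKM in sum. The summed level of the family was 1915 FPKM after anti-APC siRNA, against 1650 FPKM in the control, a log2 ratio of 0.22.

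**Figure D1:**
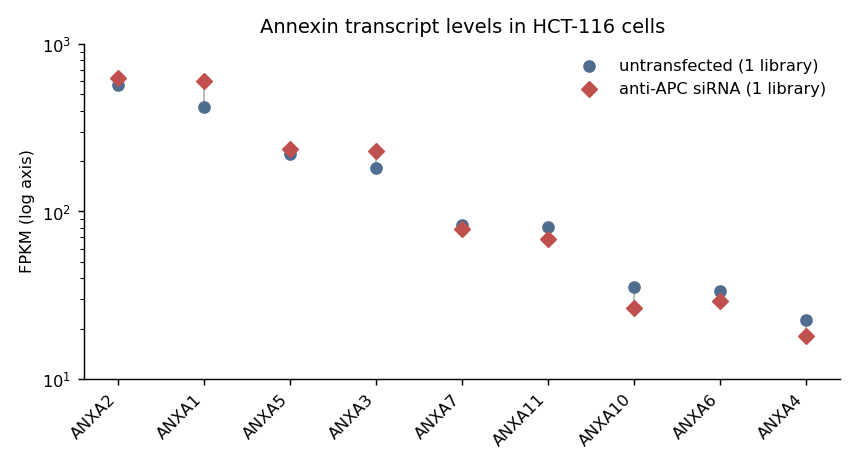
The 9 detected annexins by FPKM (log axis) in the anti-APC siRNA and the untransfected library, 1 point per library. ANXA2 and ANXA1 lie between 418 and 627 FPKM, ANXA3 and ANXA5 between 182 and 237 FPKM, and the next 5 between 18.0 and 83.5 FPKM. ANXA13, listed at 0, is not plotted.

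The 5 members of middle level all had the lower value with anti-APC siRNA. *ANXA7*, or synexin, which binds the calcium proteins sorcin and PDCD6, was at 78.6 FPKM after anti-APC siRNA, against 83.5 FPKM in the control, a log2 ratio of -0.09 (-0.15 to -0.025). *ANXA11*, whose long tail binds S100A6 and PDCD6, was at 68.3 and 81.2 FPKM, a log2 ratio of -0.25 (-0.31 to -0.19). These 2 genes of chromosome 10 kept their order, with *ANXA7* at 1.15 times the *ANXA11* level with anti-APC siRNA and 1.03 times without.

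*ANXA6*, which brings the RAS regulator RASA1 to membranes, was at 29.2 FPKM after anti-APC siRNA, against 33.7 FPKM in the control, a log2 ratio of -0.21 (-0.30 to -0.12). *ANXA10*, known from the stomach, was at 26.7 and 35.6 FPKM. Its log2 ratio of -0.42 (-0.54 to -0.29) was the lowest of the family, and 11.9% of the tested genes had a lower one. *ANXA10* stood above *ANXA6* in untransfected cells and below it in the anti-APC library, and the other 7 detected members kept their order. With 1 library per group there is no spread against which such neighbours could be told apart. *ANXA4*, a member found in many epithelia, was at 18.0 and 22.6 FPKM, a log2 ratio of -0.33 (-0.46 to -0.20). It was the lowest of the 9 detected members in both libraries, and the *ANXA1* level was 33.4 times that of *ANXA4* with anti-APC siRNA and 18.5 times without.

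*ANXA13*, at chr8:124693034-124749642 on the minus strand in GRCh37, was listed at 0 FPKM in both libraries, with a flag that it was not tested. A count of 3 reads would give 0.0936 FPKM in the anti-APC library and 0.0855 FPKM in the untransfected one, and a level under these values was not detectable at this depth.

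**Figure D2:**
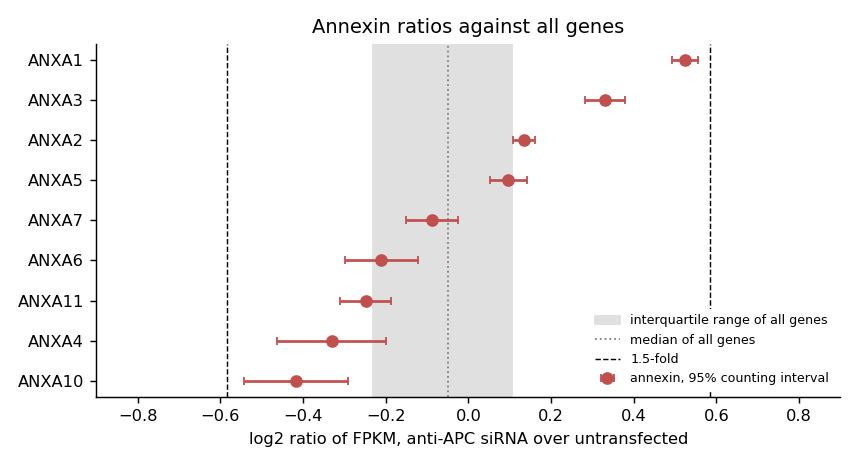
Log2 ratio (anti-APC siRNA over untransfected) of the 9 detected annexins, with bars for the 95% counting interval, the interquartile range of all genes as a band and dashed lines at 1.5-fold. ANXA1 at 0.52 is the highest and ANXA10 at -0.42 the lowest, and no point lies past 1.5-fold.

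Counted over the family, 9 of 10 members had at least 1 FPKM in both libraries, 4 with the higher and 5 with the lower value in the anti-APC library, beside 58.4% of all genes with the lower value. No annexin was past 1.5-fold in either direction, beside 2.29% of all tested genes past it upward and 5.76% downward. At a smaller limit, at which the higher library exceeds the other by 25%, 2 members were higher, *ANXA1* and *ANXA3*, beside 6.86% of all genes, and 2 were lower, *ANXA10* and *ANXA4*, beside 17.5%. The median log2 ratio of the 9 was -0.09, and that of all 11815 genes was -0.05, with quartiles of -0.23 and 0.11. Subtracting the median of all genes moved the log2 ratio of *ANXA1* to 0.57.

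The members' ratios were split by level, in ranges that were chosen after the values were seen. Of the 989 genes at 100 FPKM or more, 54.5% had the higher value with anti-APC siRNA, and all 4 annexins of that range did. Of the 6100 genes from 10 to 100 FPKM, 54.7% had the lower value, and all 5 annexins of that range did. In the upper range 95% of genes had a log2 ratio below 0.49, which *ANXA1* passed and *ANXA3* did not. In the range from 10 to 100 FPKM 5% of genes were below -0.47, and *ANXA10* at -0.42 was inside that limit.

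**Figure D3:**
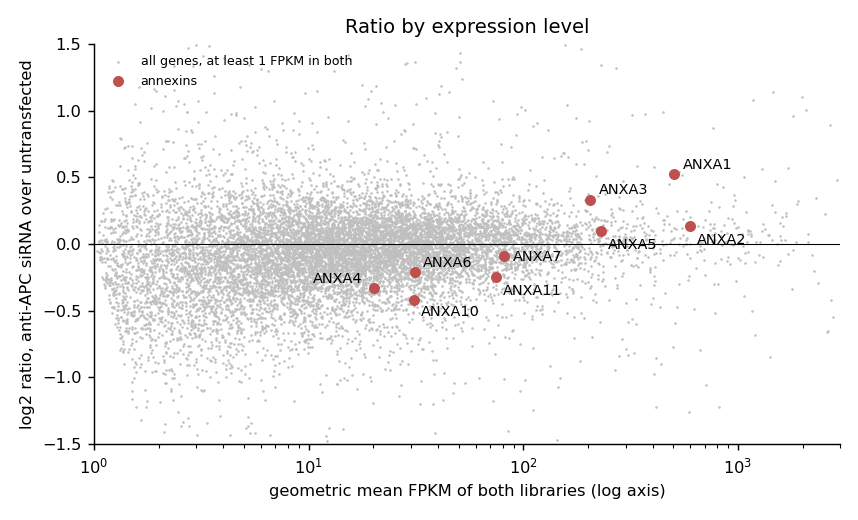
Log2 ratio (anti-APC siRNA over untransfected) against mean FPKM (log axis) for 11745 genes in grey, with the annexins named and 70 genes outside the axes. The 4 annexins at 100 FPKM or more lie above 0 and the 5 between 10 and 100 FPKM lie below it.

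The remaining rows with an ANXA symbol matter for *ANXA2*, because processed copies of it lie elsewhere in the genome. The copy *ANXA2P2* was listed at 815 FPKM after anti-APC siRNA, against 735 FPKM in the control, above *ANXA2* itself, and the copy *ANXA2P3* at 75.3 and 65.2 FPKM. The following 60 coding bases show a stretch where *ANXA2* and its copies are close, with capitals at the bases that differ from *ANXA2*. Of 91 gap-free windows within 1 exon that differed from *ANXA2* in both copies, none had fewer differences.
ANXA2: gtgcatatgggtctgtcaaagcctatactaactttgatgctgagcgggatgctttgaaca
ANXA2P2: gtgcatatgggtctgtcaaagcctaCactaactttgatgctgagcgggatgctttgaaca
ANXA2P3: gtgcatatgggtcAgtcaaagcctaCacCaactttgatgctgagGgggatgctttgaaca
The windows lie in GRCh37 at chr15:60674565-60674624 on the minus strand in *ANXA2*, at chr9:33624336-33624395 on the plus strand in *ANXA2P2* and at chr10:66585393-66585452 on the plus strand in *ANXA2P3*. In this window *ANXA2P2* differed at 1 base and *ANXA2P3* at 4 bases. Over the 1017 coding bases of *ANXA2*, *ANXA2P2* differed at 16, an identity of 98.4%. *ANXA2P3* differed at 78 of 1009 aligned bases, an identity of 92.3% that leaves out 6 gaps.

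Of all stretches of 50 bases in the *ANXA2* transcript, 43.0% were also present in another row with an ANXA symbol, whereas none was for the other 9 members. How the reads of *ANXA2* were divided between these rows is therefore uncertain. *ANXA2P2* stood at 1.30 times the *ANXA2* level with anti-APC siRNA and 1.29 times without. By FPKM times transcript length, *ANXA2* held 45.5% and 45.8% of the sum over the 3 rows, and the log2 ratio of that sum was 0.14. The log2 ratio of *ANXA2* on its own was 0.13. The ratio of the sum must lie between those of its rows, 0.13 to 0.21, and no other split was tried. The level did depend on the split. At 50 bases, 49.6% of the *ANXA2P2* stretches and 2.23% of the *ANXA2P3* stretches were also present in *ANXA2*. The other stretches of the copies differ from *ANXA2*, so assigning all their reads to *ANXA2* is an upper end. With the reads of both copies assigned to *ANXA2*, an alternative added after seeing the data, *ANXA2* would stand at 1379 and 1247 FPKM. That is 2.29 times the *ANXA1* level with anti-APC siRNA and 2.98 times without, and *ANXA1* would then make up 22.5% and 18.0% of the family's sum.

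The last rows were low or not estimated. *ANXA9* was at 0.440 FPKM after anti-APC siRNA, against 0.804 FPKM in the control, from about 15 and 30 reads, and its log2 ratio of -0.87 had an interval of -1.76 to 0.025. *ANXA8*, *ANXA8L1* and *ANXA8L2* were below 0.05 FPKM in both libraries, so no fold is given. For *ANXA8* and *ANXA8L2* this is under what 3 reads would give. For *ANXA8L1*, listed at the same locus as *ANXA8*, that limit was not computed. *ANXA2P1* was listed at 0 with a flag for a failed estimate.

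The partners of the annexins were read from a list of 30 genes in the table, of which 24 had at least 1 FPKM in both libraries, 7 higher and 17 lower with anti-APC siRNA. Of all 11815 genes 58.4% were lower, which is the background for this count and for those of the partner groups. Past 1.5-fold, 3 were lower and none was higher, beside the 5.76% and 2.29% of all genes, and the median log2 ratio was -0.14. Among the S100 proteins, small proteins that attach to annexin tails, *S100A10*, the partner of *ANXA2*, was at 261 FPKM after anti-APC siRNA, against 232 FPKM in the control, a log2 ratio of 0.17. *S100A11*, a partner of *ANXA1*, was at 223 and 221 FPKM. *S100A6*, which binds annexin A11, was 1.86-fold lower, at 319 and 595 FPKM, a log2 ratio of -0.90 (-0.96 to -0.84). *S100A4* was 2.21-fold lower, at 17.7 and 39.1 FPKM.

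Of the receptors of secreted annexin A1, *FPR1* was at 0.0695 FPKM with anti-APC siRNA and listed at 0 without, *FPR2* was listed at 0 in both libraries, and *FPR3* was at 0 and 0.0156 FPKM. None of them reached 1 FPKM. The values of *FPR1* and *FPR3* above 0 were under what 3 reads would give, 0.105 and 0.0494 FPKM in those libraries. *PLA2G4A*, the cytosolic phospholipase A2, was at 6.88 and 6.58 FPKM, a log2 ratio of 0.06. *PTGS2*, the inducible cyclooxygenase, was at 0.397 and 0.236 FPKM.

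In the plasmin system, *PLAU*, the urokinase gene, was at 7.35 FPKM after anti-APC siRNA, against 20.0 FPKM in the control. This is 2.71-fold lower, a log2 ratio of -1.44 (-1.61 to -1.27), and it was the lowest ratio among the partners. *PLAUR*, its receptor, was at 17.2 and 23.6 FPKM, and *PLAT*, the activator that *ANXA2* binds, at 2.69 and 3.02 FPKM.

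Of 11 genes for calcium-binding partners of the annexins and for membrane repair, 10 had at least 1 FPKM in both libraries, 2 higher and 8 lower, with a median log2 ratio of -0.13, beside 58.4% of all genes lower and a median of -0.05. *PDCD6*, the calcium sensor bound by annexins A7 and A11, was at 40.6 FPKM after anti-APC siRNA, against 56.1 FPKM in the control, a log2 ratio of -0.47. *SRI*, or sorcin, was at 33.7 and 36.7 FPKM, and *AHNAK*, a giant scaffold that holds the *ANXA2* complex, at 93.4 and 110 FPKM. Of 5 kinase and RAS genes, 1 was higher and 4 were lower, beside the same background, with *EGFR*, whose product phosphorylates annexin A1, at 22.6 and 21.7 FPKM, and *RASA1*, the partner of *ANXA6*, at 14.4 and 16.3 FPKM.

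**Figure D4:**
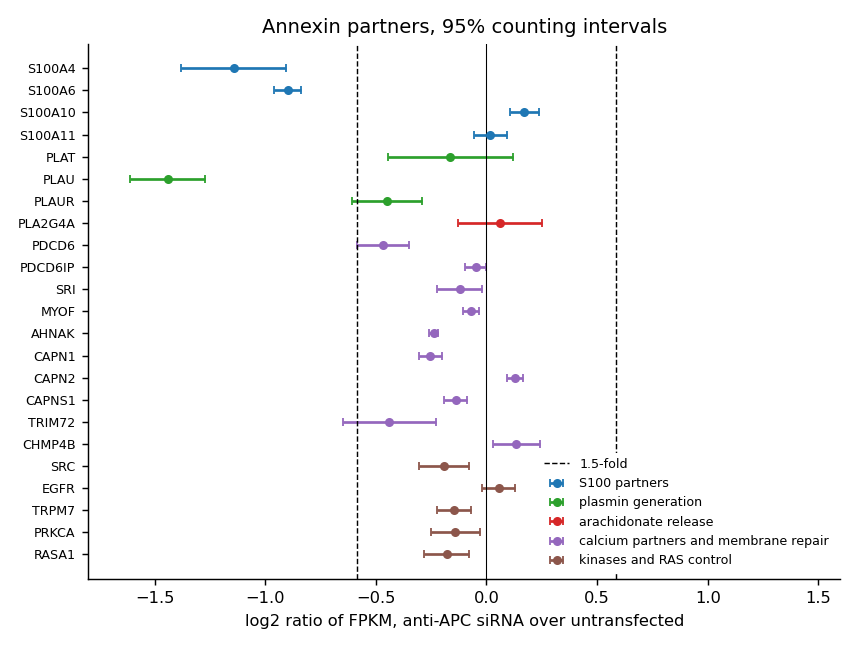
Log2 ratio (anti-APC siRNA over untransfected) of 23 annexin partners with at least 1 FPKM in both libraries, by group, with bars for the 95% counting interval and dashed lines at 1.5-fold. PLAU, S100A4 and S100A6 lie past the lower line and no plotted partner lies past the upper one.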

How the data were processed

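RNA-seq of HCT-116 cells was used, 1 library per group, with groups taken from the labels. The deposited table holds FPKM values per gene and library, which the authors made with Cufflinks and Cuffdiff, and hg19 is the build in the submitters' processing notes. The aligner, the annotation, the read length and the versions are not given in the sources used here. The table's columns of the authors' own comparison (a log fold change, a test statistic, p-values, q-values and a call) were not used. Groups, levels and ratios were computed with Python 3.11.15, numpy 2.4.6 and pandas 2.3.3, and sequences were read with Biopython 1.88 from GRCh37 and the GENCODE 44 annotation mapped to it, by the canonical transcript. Ratios are log2 of FPKM without a pseudocount, for genes at 1 FPKM or more in each library, and a gene was counted as past the limit at 1.5-fold. Depth was estimated from genes under 0.2 FPKM, whose values step by whole reads, and the counting intervals rest on it. The absolute depth rests on 10 genes. The depth estimate and the fold counts were tested on simulated data, and the counting intervals and the sequence steps were not. The simulation planted 2-fold changes, up or down, in 200 of 3601 genes, with counting error only. It recovered 199 of them and put 7 unchanged genes past 1.5-fold. Changes as small as those of the annexins were not simulated, nor was the spread between cultures. The text names all 10 members, every other ANXA row, members of the partner list, *APC*, *CTNNB1*, *AXIN2* and marker genes. One partner gene, kept in the counts and medians, is not reported here. The members and lists were chosen with earlier results of these data known. Alternatives were another fold limit, FPKM minimum, pseudocount and centring on the median of all genes.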

Additional observations from a re-analysis of the deposited data

How the results depend on the processing

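Of 71 values recomputed under another setting, 59 stayed within counting error or within 1.5 times the count, 12 moved and none reversed. Many of the 59 could not have moved. Every detected member was at 18.0 FPKM or more, so the other FPKM minimums, above 0 and 5 FPKM, kept the same annexins. With no annexin past 1.5-fold, none could be past 2-fold, and the pseudocounts were small beside these levels. Among 30 values of single annexins none reversed, but most of them could not. The same pseudocount in both libraries cannot change the sign of a ratio, and counts and levels were not read for a sign. The median of all genes that was subtracted, -0.05, was smaller than the smallest annexin ratio, -0.09 for *ANXA7*. The log2 ratio of *APC* became -1.19 when 1 FPKM was added to each value, and with the median of all genes subtracted that of *ANXA1* was 0.57. At the limit of 25%, 2 annexins were higher and 2 lower, and 1 of the 24 partners was higher and 6 were lower. Of all genes, 6.86% were higher and 17.5% lower at this limit. With every gene above 0 in both libraries counted, 2 partners were higher past 1.5-fold (*PLG* and *PTGS2*) and 4 were lower. *PLG* was at 0.034 and 0.021 FPKM, under what 3 reads would give, so its fold says little. *PTGS2* rested on about 39 and 26 reads, and its log2 ratio had an interval of 0.032 to 1.47. *DYSF*, the lower gene that this setting added, rested on about 4 and 22 reads and had a flag for low data. The share of all genes was not computed at this setting. Summing *ANXA2* with its copies, an alternative added after seeing the data, gave a log2 ratio of 0.14. The level of *ANXA2* over that of *ANXA1* was then 2.29 with anti-APC siRNA and 2.98 without, in place of 1.04 and 1.36. These levels are an upper end, since all reads of the copies were assigned to *ANXA2*. Leaving out a replicate was not possible with 1 library per group, and no paired analysis was possible because the groups hold 1 library each. Counting error is the only error known here, and the spread between cultures is not.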
